A study of Rattus norvegicus with 20 samples.

Results

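The genes described here are the ubiquitin-conjugating enzymes and the Usp deubiquitinases of the rat medial prefrontal cortex (mPFC), taken by symbol as every gene named Ube2 followed by a letter or Usp followed by a digit. The matrix of 31038 genes holds 86 such symbols, and 79 of them, 31 Ube2 and 48 Usp genes, reached 5 or more reads in 10 or more of the 20 libraries, the rule that kept 16605 genes in all. The libraries come from male Sprague-Dawley rats, 10 injected with LSD at 0.16 mg/kg and 10 with sterile saline, on alternate days for 90 days. All 20 were housed alone. The deposited descriptions give an age of 6 to 8 weeks at the start and tissue taken 3 weeks after the injections ended, whereas the study's methods give older rats and a longer interval. Each library holds RNA of tissue from a single side of the brain, so the values are those of a bulk tissue in which fewer cells of a type and less RNA per cell cannot be told apart.

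Ubiquitin is a small protein that is attached to other proteins in a chain of steps. An E1 enzyme activates it, an E2 enzyme, encoded by the Ube2 genes, carries it on a cysteine, and an E3 ligase directs its transfer to the substrate, where chains of ubiquitin can send the protein to the proteasome or change its place and partners. Deubiquitinases cut ubiquitin off again, and the Usp proteases are their largest family. In neurons this exchange sets the turnover of receptors and scaffolds at synapses. The symbols are broader than the name of each family, since *Ube2m* and *Ube2f* carry NEDD8, *Ube2l6* carries ISG15, *Ube2v1* and *Ube2v2* lack the catalytic cysteine, and *Usp6nl* encodes a regulator of Rab GTPases rather than a protease.

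The genes that changed after LSD pointed one way in each family. Among the 48 Usp genes 18 (37.5%) rose and 0 fell, and among the 31 Ube2 genes 6 (19.4%) fell and 0 rose. The difference between the families was itself not tested. Over all genes tested, 6.48% were higher and 8.54% lower (edgeR's quasi-likelihood test, Benjamini-Hochberg adjusted p under 0.05). At an unadjusted p under 0.05, 21 Usp genes were higher and 3 lower, and 4 Ube2 genes were higher and 7 lower. At that threshold, 2392 of the 16605 genes tested were higher and 2719 lower. DESeq2 also called 0 Ube2 genes higher and 0 Usp genes lower, with 19 Usp genes higher and 6 Ube2 genes lower. The share of all genes that DESeq2 called is not given here. Its counts can therefore not be read against the shares above, which are from edgeR. The log2 fold change was above 0 in 41 Usp genes (85.4%) and in 12 Ube2 genes (38.7%), against 50.4% of all genes, and its median was 0.16 for Usp, -0.05 for Ube2 and 0.00 for all genes tested. The changes were small: among the genes called, they ran from 0.15 to 0.64 in the Usp family and from -0.25 to -0.13 in the Ube2 family on the log2 scale.

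**Figure D1:**
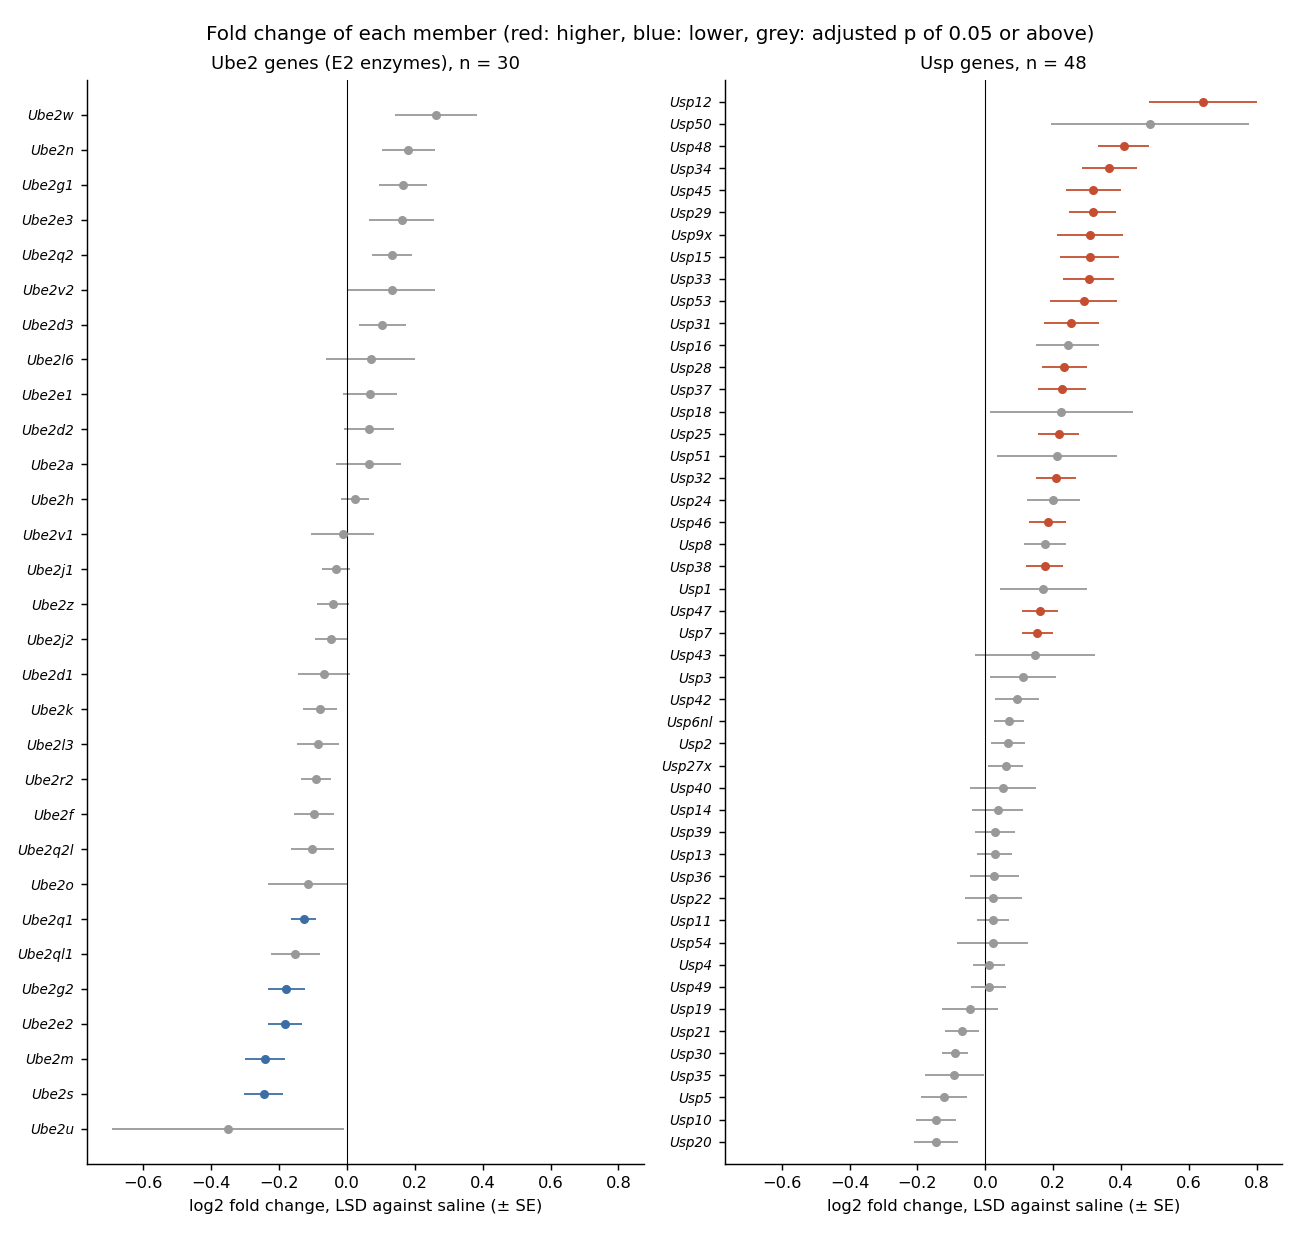
Log2 fold change of 30 Ube2 genes (left) and 48 Usp genes (right) between 10 LSD-treated and 10 saline-treated rats, with bars of 1 standard error; red and blue mark genes with an adjusted p under 0.05, grey all others. The 18 red genes are all on the Usp side and the 5 blue genes all on the Ube2 side.

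Libraries of the LSD-treated rats were deeper, with a median of 20271086 reads on genes against 16815424 in controls, over a range from 11098076 to 25552681 in all. With every library drawn down to 11098076 reads, 14 Usp genes were higher and 6 Ube2 genes lower, against 6.16% higher and 7.88% lower of all genes, and *Usp25*, *Usp31*, *Usp37*, *Usp38* and *Usp53* were no longer called. Drawing down evens out the number of reads, but not other differences that go with depth. Among the controls, *Usp33* had 66.6 CPM in Saline 5, with the fewest reads, and 98.5 CPM in Saline 2, with the most. *Usp34* had 71.3 and 73.7 CPM in these rats. What part of the results goes with depth beyond the number of reads was not tested. One control, Saline 9, stood apart: with genes split by genomic span into 5 classes, the mean deviation in log2(CPM + 1) of the shortest class minus that of the longest was 0.38 there, with 0.17 in the next control and -0.14 to -0.03 in the LSD-treated rats. Markers of excitatory neurons, inhibitory neurons, astrocytes, oligodendrocytes and microglia were detected in both groups. Called among them were *Slc32a1* (-0.34) and *Sst* (-0.28) as lower and *Gad2* (0.23) and *Vip* (0.27) as higher of 6 inhibitory markers, the astrocyte marker *Slc1a2* as higher (0.41) and *Olig1* of the oligodendrocyte precursors as lower (-0.32), all as log2 fold changes. All 6 oligodendrocyte markers and all 7 markers of the neighbouring striatum had a negative log2 fold change, with medians of -0.35 and -0.61, although none was called by edgeR (3 and 7 at an unadjusted p under 0.05, 1 and 0 with DESeq2). Their summed levels overlapped between groups, from 2231.51 to 5760.8 CPM under LSD and from 2195.25 to 7479.31 CPM in controls for oligodendrocytes, and from 264 to 536 CPM and from 302 to 777 CPM for striatum, and their part in the results was not tested.

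The promoters of the genes with the smallest p in each family are shown because the genes called in a family changed in one direction. RefSeq's GRCr8 annotation gives one for 25 of the 31 Ube2 and 40 of the 48 Usp genes. Printed are the 150 bases before the annotated start of *Usp48* at chr5:155083888-155084037 (plus strand), *Usp29* at chr1:75959897-75960046 (minus strand), *Ube2s* at chr1:78057509-78057658 (plus strand) and *Ube2m* at chr1:82738299-82738448 (minus strand), each read 5′ to 3′ along the gene.
Usp48: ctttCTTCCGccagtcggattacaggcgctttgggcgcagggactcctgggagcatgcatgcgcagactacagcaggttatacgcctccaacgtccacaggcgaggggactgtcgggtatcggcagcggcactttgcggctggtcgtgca
Usp29: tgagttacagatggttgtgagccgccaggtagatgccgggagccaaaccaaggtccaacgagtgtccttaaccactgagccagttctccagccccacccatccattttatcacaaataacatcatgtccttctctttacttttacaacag
Ube2s: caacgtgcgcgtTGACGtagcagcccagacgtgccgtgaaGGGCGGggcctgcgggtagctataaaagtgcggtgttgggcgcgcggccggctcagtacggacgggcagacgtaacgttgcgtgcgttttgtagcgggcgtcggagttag
Ube2m: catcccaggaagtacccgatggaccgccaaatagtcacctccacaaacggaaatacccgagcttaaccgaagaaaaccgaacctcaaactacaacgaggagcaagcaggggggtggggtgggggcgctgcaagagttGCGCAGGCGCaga
Capitals mark 5 short motifs on either strand, GGGCGG (the Sp family), CGGAAG (the ETS core), TGACG (the CREB core), the NRF1 motif and CACGTG (an E-box). In the full window of 300 bases, 250 before the start and 50 after it, GGGCGG occurred in 18 of the 25 Ube2 promoters (72%) and 29 of the 40 Usp promoters (72.5%), against 59.2% of the 11605 promoters of genes tested and 34.9% of all 27457. The NRF1 motif occurred in 20% of Ube2 and 15% of Usp promoters, against 8.79% of the genes tested. The median number of CG dinucleotides in the window was 32 for Ube2, 27 for Usp and 20 for the genes tested. GGGCGG occurred in 13 of the 15 promoters of up-regulated Usp genes and in 16 of 25 of those not called, and in 4 of 5 promoters of down-regulated Ube2 genes and 14 of 20 of those not called. CGGAAG occurred in 5 of 15 promoters of up-regulated Usp genes and 12 of 25 of those not called. In the Ube2 family it occurred in 2 of 5 promoters of down-regulated genes and 6 of 20 of those not called. These counts are small, and no difference between them was tested. CGGAAG was in 32% of all Ube2 and 42.5% of all Usp promoters, against 27.4% of the genes tested. TGACG was in 36% and 40%, against 30%, and CACGTG in 4% and 10%, against 8.94%. *Usp29* was the exception among the 4 shown, with 3 CG dinucleotides and none of the motifs in the printed stretch. Whether its transcription begins at this annotated start in the mPFC was not tested.

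Among the Usp proteases, *Usp48* had the smallest p. It encodes a deubiquitinase found in the nucleus and cytoplasm. Its TMM-normalised level in LSD-treated rats in CPM, reads scaled to library size, was 27.1 CPM in the lowest, 29.8 in the median and 30.9 in the highest rat, and in controls it was 14.1, 22.4 and 26.5 CPM. The groups did not overlap, which held for 0.108% of all genes in this direction and for 0.0843% with all LSD-treated rats below the controls. The log2 fold change was 0.41 ± 0.075 (SE, n = 10 rats per group, adjusted p = 0.00408, edgeR), a fold of 1.33. Saline 9 was far below the other controls for this gene, and without it the log2 fold change was 0.35 (adjusted p = 0.00211, edgeR).

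*Usp29*, which is an imprinted gene expressed from the paternal allele, ranged from 60.2 CPM through a median of 64.2 to 75.7 CPM under LSD and from 39.0 through 53.7 to 63.0 CPM in controls. Each LSD-treated rat was above the control median, and 7 were above every control. Its log2 fold change was 0.32 ± 0.069 (SE, adjusted p = 0.00763, edgeR).

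*Usp34* encodes a very large protease of the Wnt pathway, where it acts on axin. Levels ran from 87.9 through 98.0 to 110 CPM in LSD-treated rats and from 51.0 through 74.4 to 91.2 CPM in controls. No LSD-treated rat was below the control median and 8 exceeded the highest control, with a log2 fold change of 0.37 ± 0.082 (SE, adjusted p = 0.00829, edgeR). *Usp33*, which acts on Robo1 and on the beta-adrenergic receptor, had 81.4, 93.6 and 107.6 CPM as lowest, median and highest value under LSD and 57.6, 75.2 and 98.5 CPM in controls. The groups overlapped here, since Saline 2 was above 8 of the LSD-treated rats, and the log2 fold change was 0.30 ± 0.075 (SE, adjusted p = 0.0119, edgeR).

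*Usp12* and *Usp46* encode close relatives that need the WD-repeat protein Wdr48 for activity, and both rose. *Usp12* had few reads, 18 to 136 per rat, and went from a control range of 1.61 to 4.86 CPM (median 2.45) to a range of 2.85 to 5.09 CPM (median 4.23) under LSD. Its log2 fold change of 0.64 ± 0.16 (SE, adjusted p = 0.0125, edgeR) was the highest of the genes called in both families. The highest control was Saline 2, and without it the log2 fold change was 0.81. *Usp46*, which controls AMPA receptor turnover in neurons, had 165 ± 11.4 CPM (SD, n = 10) under LSD and 145 ± 14.5 CPM (SD, n = 10) in controls, a log2 fold change of 0.18 (adjusted p = 0.0296, edgeR). *Usp1*, the third partner of Wdr48, had a log2 fold change of 0.17 with an adjusted p of 0.384 in that test.

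The other up-regulated proteases cover several functions. *Usp7*, which deubiquitinates Mdm2 and p53, rose by 0.15 on the log2 scale (adjusted p = 0.0285, edgeR) and *Usp9x*, an X-linked protease with many neuronal substrates and the deubiquitinase of Mcl1, by 0.31 (adjusted p = 0.0340). *Usp15*, an activator of TGF-beta receptor signalling, stood at 0.31, *Usp45*, which acts on the repair nuclease partner Ercc1, at 0.32, and *Usp37*, a protease of the cell cycle and of DNA replication, at 0.23. *Usp25* and *Usp28*, the paralogues that respectively act in immune signalling and on Myc, were at 0.22 and 0.23. *Usp32*, which acts on Rab7, was at 0.21 and *Usp38* at 0.18. *Usp53*, a tight junction protein, was at 0.29, close to the threshold (adjusted p = 0.0493). *Usp31* and *Usp47*, the last of the 18, were named after their values were seen and stood at 0.25 and 0.16. In 16 of the 18 genes every LSD-treated rat exceeded the control median, and in *Usp7* and *Usp9x* 9 of 10 did. Because the genes were called on the same rats, this follows largely from the call and is no separate support.

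The remaining 30 Usp genes were not called, with log2 fold changes from -0.15 to 0.48, 23 of them above 0. *Usp14* and *Usp5* are close to the proteasome, the first bound to it and the second clearing free ubiquitin chains, and had log2 fold changes of 0.04 (adjusted p = 0.792) and -0.12 (adjusted p = 0.231). *Usp30* on mitochondria, which opposes the removal of damaged ones, was at -0.09 (adjusted p = 0.125), with 0 of 10 LSD-treated rats above the control median. *Usp22* of the SAGA complex, which deubiquitinates histone H2B, stood at 0.02 and *Usp2*, an enzyme with a circadian rhythm, at 0.07. *Usp8*, which sorts receptors at endosomes, was just outside the threshold with 0.18 (adjusted p = 0.0575). *Usp18*, the ISG15 protease, was at 0.22 ± 0.21 (SE), *Usp54* at 0.02 and *Usp6nl* at 0.07 (adjusted p = 0.299), all from edgeR's test.

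**Figure D2:**
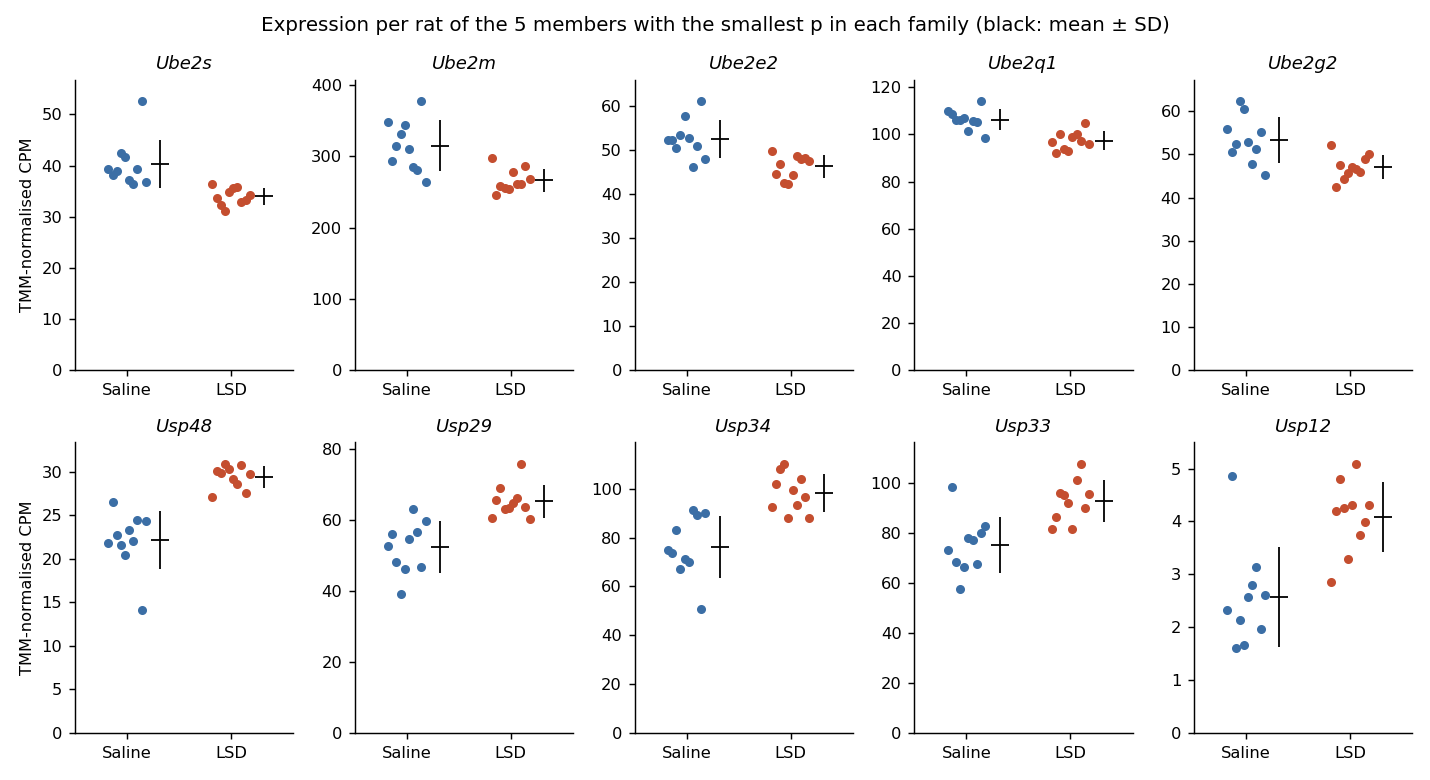
TMM-normalised CPM in each rat for the 5 Ube2 genes (top) and the 5 Usp genes (bottom) with the smallest p, with 10 saline-treated (blue) and 10 LSD-treated rats (red) and black marks for the mean and SD. *Usp48* is the panel in which no LSD-treated rat overlaps a control, from 27.1 CPM upwards against 26.5 CPM at most.

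On the side of conjugation, *Ube2s*, the E2 that lengthens K11-linked chains for the anaphase-promoting complex, had 31.2, 34.0 and 36.4 CPM as lowest, median and highest value under LSD and 36.4, 39.2 and 52.6 CPM in controls. The groups touched at a single rat, as 9 of the LSD-treated rats were below every control. The log2 fold change was -0.25 ± 0.058 (SE, n = 10 rats per group, adjusted p = 0.00997, edgeR), a fold of 0.844. The highest control was again Saline 9, and without it the log2 fold change was -0.19.

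*Ube2m*, one of the pair of E2 enzymes that load NEDD8 on cullins, ranged from 245 through 261 to 298 CPM in LSD-treated rats and from 264 through 312 to 377 CPM in controls. No LSD-treated rat was above the control median, and the log2 fold change was -0.24 ± 0.059 (SE, adjusted p = 0.0118, edgeR). *Ube2f*, the other NEDD8 enzyme, had 18.2 ± 1.20 CPM (SD, n = 10) and 19.5 ± 1.96 CPM (SD, n = 10), a log2 difference of -0.10 (adjusted p = 0.283).

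*Ube2e2* had 42.2, 47.2 and 49.7 CPM under LSD and 46.2, 52.2 and 61.0 CPM in controls, each time as lowest, median and highest value (log2 fold change -0.18 ± 0.050 SE, adjusted p = 0.0191, edgeR). *Ube2q1* ran from 92.0 through 97.0 to 104.9 CPM and, in controls, from 98.5 through 106 to 114 CPM, with a log2 fold change of -0.13 ± 0.037 (SE, adjusted p = 0.0245). *Ube2g2*, the E2 of protein degradation at the endoplasmic reticulum, ran from 42.3 through 46.9 to 52.1 CPM and from 45.2 through 52.6 to 62.3 CPM (log2 fold change -0.18 ± 0.055 SE, adjusted p = 0.0313). The ranges of these genes overlapped between groups, and in all 6 down-regulated Ube2 genes 0 of 10 LSD-treated rats were above the control median. This too follows largely from the call, which was made on the same rats.

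The general-purpose E2 enzymes did not pass the threshold. *Ube2d1*, *Ube2d2* and *Ube2d3*, which work with many E3 ligases, had log2 fold changes of -0.07, 0.07 and 0.10, and *Ube2a*, the histone H2B and DNA damage enzyme, one of 0.06. *Ube2k*, the E2 of K48-linked chains, stood at -0.08 (adjusted p = 0.304, edgeR). *Ube2n*, which makes K63-linked chains with a Ube2v partner, was at 0.18 (adjusted p = 0.120), higher than the control median in all 10 LSD-treated rats, while its partners *Ube2v1* and *Ube2v2* were at -0.01 (adjusted p = 0.943) and 0.13 (adjusted p = 0.522). *Ube2l6* was at 0.07. In all, 25 Ube2 genes were not called, 12 above 0 and 13 below it, from -0.35 to 0.26.

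At the edge of the read rule, *Ube2u* and *Usp50* passed with 149 and 141 reads over all rats, whereas *Ube2t* and *Ube2c*, both E2 enzymes of dividing cells, did not with 80 and 70. *Ube2d4*, *Usp26*, *Usp44* and *Usp9y* also failed it. *Ube2b*, a near-identical relative of *Ube2a*, had 4 reads in all, whereas *Ube2a* had 9585, and the reason was not tested. The treatment of reads that align in several places is not given in the sources used here. The counts of *Ube2n*, *Ube2v1*, *Ube2d2* and *Ube2d3*, which have close copies in the genome, are therefore uncertain.

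Related members were then compared within each rat as the log2 ratio of their reads, in which the scaling of a library cancels. Ratios could still differ between libraries of unlike depth, as for *Usp33* to *Usp20*. This ratio was -1.38 in Saline 5, with the fewest reads on genes (11098076), and -0.42 in Saline 2, the deepest control (24201351). It was -1.03 in LSD 1 and -0.43 in LSD 7, with the fewest and the most reads of the LSD-treated rats (16346629 and 25552681). The part of depth in the ratios was not tested. The list of 22 pairs was written after the values of the members had been seen, and some genes occur in more than one pair. Several pairs set a called gene against a relative that was not called. Their p-values therefore restate differences already seen in the same rats, and are a description rather than separate support. In an exact two-sided permutation test over all 184756 splits of the rats, 9 pairs had a Benjamini-Hochberg adjusted p under 0.05 over the 22 pairs. An unadjusted p under 0.05 was reached by 11. The ratio of *Usp33* to its paralogue *Usp20* rose by 0.46 (p = 0.00389, adjusted p = 0.0125, exact permutation test), higher than the control median in 10 of 10 LSD-treated rats. *Usp12* rose against *Usp46* by 0.53 (p = 0.00193, adjusted p = 0.0106, exact permutation test), so that these partners of Wdr48 rose by unequal amounts. *Usp15* rose against *Usp4* by 0.32 (p = 0.000249, adjusted p = 0.00548) and against *Usp11* by 0.31 (p = 0.0117, adjusted p = 0.0287), and *Usp38* rose against *Usp35* by 0.27 (p = 0.0115, adjusted p = 0.0287, exact permutation tests). The last pair and *Usp15* to *Usp11* each lost their call in 7 of the 20 tests that leave out 1 rat.

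Inside the E2 family, ratios also differed between a called gene and relatives that were not called. *Ube2g1* rose against *Ube2g2* by 0.35 (p = 0.00102, adjusted p = 0.00841, exact permutation test), *Ube2q2* against *Ube2q1* by 0.26 (p = 0.00115, adjusted p = 0.00841), and *Ube2e3* and *Ube2e1* against *Ube2e2* by 0.36 and 0.26 (adjusted p = 0.0125 for both, exact permutation tests). In each of these pairs the ratio exceeded the control median in 9 of 10 LSD-treated rats. The other 13 pairs did not pass the threshold. The ratio of *Usp25* to *Usp28* differed by -0.01 with a 95% confidence interval from -0.14 to 0.12, that of *Usp47* to *Usp7* by 0.01 with an interval from -0.09 to 0.10, and that of *Ube2d3* to *Ube2d2* by 0.04 with an interval from -0.03 to 0.10. For *Ube2f* to *Ube2m* the difference was 0.14 (p = 0.0441, adjusted p = 0.0882, exact permutation test) and for *Usp29* to *Usp37* it was 0.09 (p = 0.0364, adjusted p = 0.0802), both with an interval above 0, and for *Usp53* to *Usp54* it was 0.25 with an interval from -0.05 to 0.56.

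**Figure D3:**
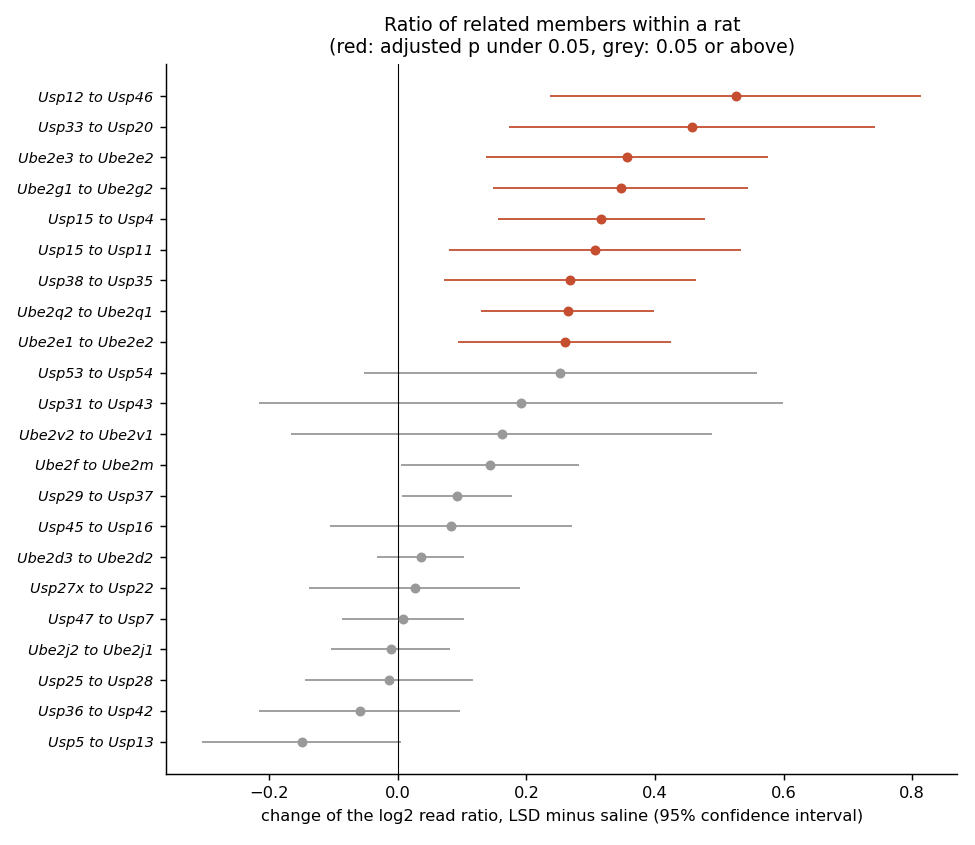
Change of the log2 read ratio of 22 pairs of related members between LSD-treated and saline-treated rats (10 each), with 95% confidence intervals; red marks an adjusted p under 0.05 in the exact permutation test. The 9 red pairs lie between 0.26 and 0.53.

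Gene length moved with these results. The genomic span of a gene, its distance from start to end in the GRCr8 annotation, was known for all 79 members, and its median was 33903 bases for Ube2, 53244.5 for Usp and 24514 for all genes with a known span. From the shortest to the longest of 5 classes of equal size, the median log2 fold change went from -0.11 to 0.10 and the share up-regulated from 1.24% to 16.5%. The up-regulated Usp genes were long, with 9 of them in class 4 and 8 in the longest class. Within class 4, 9 of the 19 Usp genes (47.4%) and 0 of the 13 Ube2 genes were higher, against 10.8% of all genes in it. Within the longest class, 8 of 12 Usp genes (66.7%) and 0 of 3 Ube2 genes were higher, against 16.5% of all genes. In both classes together, the only down-regulated member was *Ube2e2*, the longest of the E2 genes, whereas *Ube2s* and *Ube2m* belong to the shortest class, in which 18.8% of all genes were lower.

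**Figure D4:**
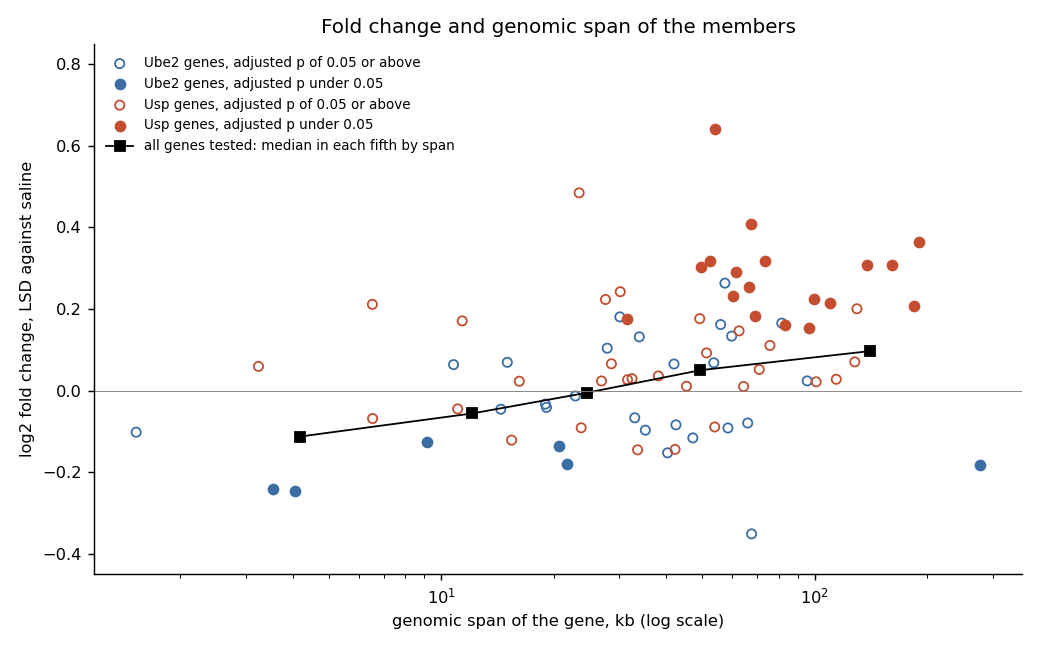
Log2 fold change of each member against its genomic span in kb (log axis), with Ube2 genes in blue, Usp genes in red, filled where the adjusted p was under 0.05, and black squares for the median of all genes in each class by span. The median of all genes climbs from -0.11 to 0.10, and filled Usp genes lie above it at spans where Ube2 genes lie on either side of 0.

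When each rat's counts were corrected for gene span, a step that also takes out any effect of LSD that follows span, 6 Usp genes were higher and 2 lower, and 4 Ube2 genes were lower. Over all genes this correction left 3.41% higher and 6.73% lower. The median log2 fold change became 0.0983 for Usp, -0.0239 for Ube2 and -0.0072 for all genes. The Usp genes that remained, all of them among the 18, were *Usp12*, *Usp29*, *Usp33*, *Usp34*, *Usp45* and *Usp48*, with log2 fold changes from 0.25 for *Usp33* to 0.59 for *Usp12*. *Usp10*, named after its values were seen, and *Usp30* became the lower ones, the latter with -0.15 (adjusted p = 0.0250, edgeR). *Ube2e2* fell further, to -0.30 (adjusted p = 0.0125), and *Ube2m*, *Ube2s* and *Ube2g2* kept adjusted p-values of 0.0410, 0.0326 and 0.0441. Of the 9 pairs, *Ube2q2* to *Ube2q1* and *Usp15* to *Usp11* no longer passed the threshold (adjusted p = 0.0773 and 0.158, exact permutation test), while *Usp29* to *Usp37* now did (0.12, adjusted p = 0.0286), which gave 8 pairs.

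The difference between the families was also described rat by rat, from the same values that gave the calls, so it is no separate support. The mean of the Usp genes in log2(CPM + 1) was 5.30 ± 0.034 (SD, n = 10) under LSD, from 5.25 to 5.36, and 5.17 ± 0.083 (SD, n = 10) in controls, from 5.01 to 5.28. For the Ube2 genes it was 5.38 ± 0.057 (SD, n = 10) and 5.39 ± 0.079 (SD, n = 10), with ranges that overlapped widely. The Ube2 mean minus the Usp mean went from 0.09 to 0.53 in controls (median 0.22) and from -0.02 to 0.20 in LSD-treated rats (median 0.08). Saline 9 had the highest value both of this difference and of the shortest minus the longest class of genes by span. The part of gene span in this difference between the groups was not tested.

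**Figure D5:**
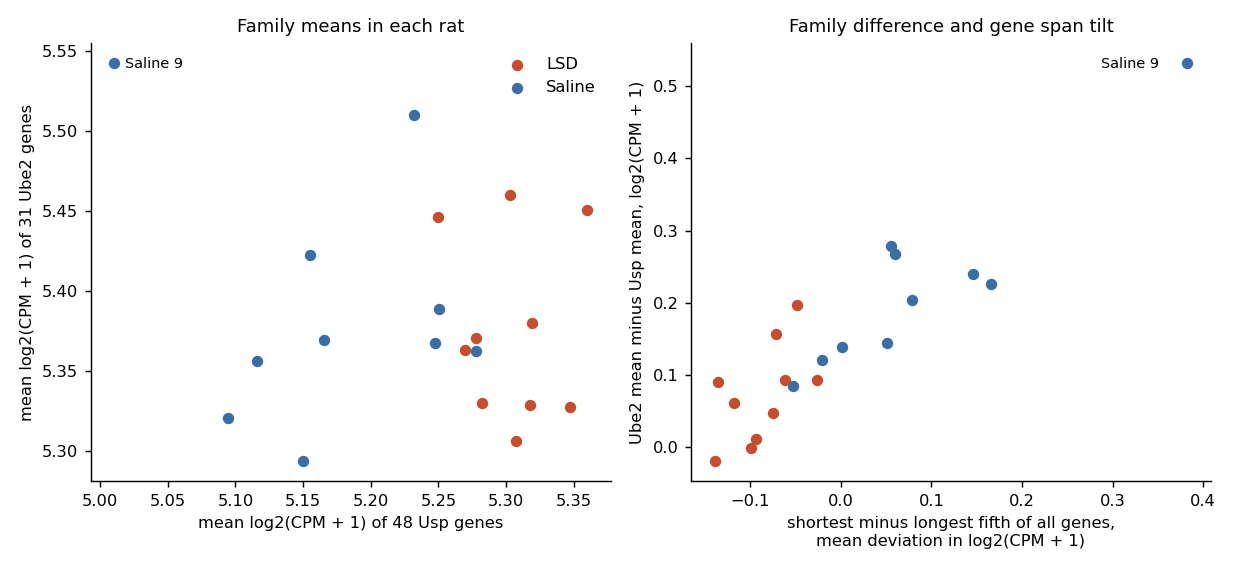
Left, mean log2(CPM + 1) of the 31 Ube2 genes against that of the 48 Usp genes in each of 20 rats (red LSD, blue saline); right, the difference of both means against the mean deviation of the shortest minus the longest class of all genes by span. LSD-treated rats lie at 5.25 or more on the Usp axis, and Saline 9 stands apart in both panels.

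The counts rested in part on single rats. Without LSD 8, 10 Usp genes were up-regulated, against 3.97% of all genes, and the same 10 remained without Saline 5, against 4.55%. These libraries had 25089120 and 11098076 reads on genes, the latter the fewest of all. The genes that lost their call in both cases were *Usp7*, *Usp9x*, *Usp31*, *Usp37*, *Usp38*, *Usp46*, *Usp47* and *Usp53*. Without Saline 3 and without Saline 4, 11 Usp genes were higher, against 4.78% and 4.25% of all genes. Without Saline 9, 13 Usp genes were higher and 5 Ube2 genes lower, against 5.20% and 6.64%. Over the 20 fits that each leave out 1 rat, the call was lost in 14 for *Usp53*, 12 for *Usp47*, 10 each for *Usp9x* and *Usp38*, 9 for *Usp37*, 8 for *Usp31*, 5 for *Usp7*, 4 for *Usp46* and 7 for *Ube2g2*. The call of *Ube2g2* was also lost with 1 surrogate variable (adjusted p = 0.0567, edgeR). With libraries scaled by their total reads alone, the median over all genes moved to 0.05 and that of the Ube2 genes to -0.00048, with 19 Usp genes higher and 2 Ube2 genes lower, *Ube2m* and *Ube2s*, against 9.06% higher and 5.17% lower of all genes.

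The rest of the pathway was described by lists of other ubiquitin genes, read beside the 6.48% of all genes called higher and the 8.54% called lower. None of the 10 E1 enzymes was called by edgeR (2 were higher at an unadjusted p under 0.05, and the same number with DESeq2). Of 7 E2 enzymes with other names, 2 were lower and 0 higher (1 at an unadjusted p under 0.05, 0 with DESeq2): *Cdc34*, the E2 of cullin ligases, with -0.27 (adjusted p = 0.00888, edgeR), and *Tsg101*, a catalytically inactive relative in endosomal sorting, with -0.16 (adjusted p = 0.0308). Of the 10 ubiquitin-like modifiers tested, 1 (10%), *Urm1*, was lower (-0.34, adjusted p = 0.00408, edgeR), a share near that of all genes. Of the 4 ubiquitin genes, 1 was lower (25%), and all 4 had a negative log2 fold change.

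Deubiquitinases outside the Usp family moved both ways, with 4 of 32 higher (12.5% against 6.48% of all genes), 3 lower (9.38% against 8.54%) and a median of 0.0036 on the log2 scale. *Vcpip1*, which acts with p97 in Golgi reassembly, was higher by 0.42 (adjusted p = 0.00854, edgeR), as were *Mysm1*, a histone H2A deubiquitinase, *Cyld*, which cuts K63-linked chains, and *Otud3*. *Josd2* was lower with -0.49 (adjusted p = 0.00357), *Otub1*, which binds and inhibits E2 enzymes, with -0.26 (adjusted p = 0.00807), and *Eif3f* with -0.25 (adjusted p = 0.00642). Of 101 E3 ligases tested, 24 were higher (23.8%, against 6.48% of all genes) and 9 lower (8.91%, against 8.54%), around a median of 0.07 on that scale. Those with the smallest p were *Anapc11* (-0.49), the RING subunit of the anaphase-promoting complex that works with *Ube2s*, *Fbxo2* (-0.40), *Rnf20* (0.25), the histone H2B ligase that works with *Ube2a*, *Ubr1* (0.42) of the N-degron pathway, and *Trim33* (0.26), all with an adjusted p of 0.00632 or lower in edgeR's test.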

How the data were processed

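RNA-seq of the mPFC of 20 male rats, 10 per group, was analysed from 1 matrix with a column per library. The authors trimmed reads with TrimGalore, aligned them to rn6 (Rnor_6.0) with HISAT2 and counted them per gene symbol with HTSeq, and they deposited raw counts without normalisation or filter; versions, annotation and strand setting are not given in the sources used here. The matrix ends with 5 rows without a name, holding 25.5% to 29.0% of the reads of a library, which were left out. Depth was 11098076 to 25552681 reads on genes, and no pair of libraries was identical. Rats were grouped by the labels, and each was taken as 1 replicate.

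LSD was compared with saline by edgeR 4.0.16 (quasi-likelihood test, TMM factors, R 4.3.3) for the 16605 genes that reached 5 reads in 10 libraries or more. P-values were adjusted by Benjamini-Hochberg over these genes, with a threshold of 0.05. The standard error is the log2 fold change divided by the root of F. CPM are normalised by TMM, and log2(CPM + 1) was used for family means. For read ratios of pairs, a comparison chosen after seeing the data, 0.5 was added to each count. Other settings were median-ratio size factors, DESeq2 1.42.0, total counts, no filter, the replicate number as a block, equal depth, 1 surrogate variable from sva 3.50.0, each rat left out, and offsets for gene span. The offsets are each rat's deviation in log2(CPM + 1), averaged in 50 bins by span, smoothed over 5 bins and centred in each rat; spans come from GRCr8 while the counts are on rn6, so no coordinates were mixed, and 89.9% of the genes tested had one. The fit was tested on simulated data.

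Named are the members called (at most 15 per family and direction), a fixed set of well-known members, and at most 5 called genes per pathway list. Members, lists and rules were chosen with earlier results of these data known. One down-regulated Ube2 gene is counted but not reported here by name, and is not in the plot of fold changes by gene.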

Additional observations from a re-analysis of the deposited data

Results flagged for a closer look

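In 96 groups of 10 rats (the members named, the family means and the span measure, in each treatment group), 7 had a rat whose gap to its nearest neighbour exceeded Dixon's critical share of the range, where chance gives about 1 in 20. Saline 9 accounts for 4 of them: *Ube2s* at 52.6 CPM (next 42.4 CPM), *Usp48* at 14.1 CPM (next 20.5 CPM), the Ube2 mean minus the Usp mean at 0.53 (next 0.28) and the shortest minus the longest class of genes by span at 0.38 (next 0.17). Saline 2 was high for *Usp12* with 4.86 CPM (next 3.14 CPM) and for *Usp46* with 180 CPM (next 157 CPM), and LSD 10 was low for *Usp9x* with 155 CPM (next 197 CPM). The adjusted p of *Usp9x* was 0.0527 without Saline 9 and 0.0200 without LSD 10 (edgeR's test), and *Usp12*, *Usp46*, *Usp48* and *Ube2s* passed the threshold without the rat that stood apart. Saline 2 had the most reads on genes of the controls, 24201351. What sets these rats apart was not tested.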

How the results depend on the processing

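DESeq2, median-ratio size factors, 1 surrogate variable and equal depth left the counts of members called within 1.5 times. Down-regulated genes numbered 858 of all genes with total counts and 836 without a filter on low counts, and in both cases 2 Ube2 genes were lower. With gene span offsets, 567 genes in all, and 6 Usp genes, were higher and 2 Usp genes lower. The labels do not say whether same-numbered rats belong together. The deviations of same-numbered rats correlated between -0.26 and 0.47, over 0.1 in 6 of 10 pairs. Their mean was 0.15, against -0.02 for rats of different numbers, and 1 LSD-treated rat correlated best with its own number. Whether the numbers mark a pair or a batch was not tested. With the replicate block, 19 Usp genes were higher, 1 (*Usp20*) lower and 6 Ube2 genes lower, while 1355 genes in all were higher and 1606 lower. In that setting 12 ratios of pairs passed the threshold (*Ube2f* to *Ube2m*, *Usp5* to *Usp13* and *Usp29* to *Usp37* were added). With span offsets and the block, 8 Usp genes were higher, 3 lower, and 3 Ube2 genes lower. The number of all genes called with both is not given here, so these counts have no background to be read against. With each rat left out, 659 to 1681 genes were higher and 907 to 1867 lower, 10 to 21 Usp genes higher and 0 to 2 lower, 0 to 2 Ube2 genes higher and 4 to 6 lower, and the medians ran from 0.14 to 0.18 for Usp and from -0.06 to -0.04 for Ube2. Members that were not called turned direction in places: *Ube2v1* to 0.0259 with total counts, 0.00447 without a filter, and 0.000495 with span offsets and the block; *Ube2a*, *Ube2d2*, *Ube2l6*, *Usp14* and *Usp54* to -0.0378, -0.00895, -0.00351, -0.0331 and -0.0285 with the surrogate variable; *Usp14*, *Usp54* and *Usp6nl* to -0.0054, -0.0543 and -0.0172 with span offsets, and to -0.0033, -0.0398 and -0.0180 with the block as well. With each rat left out, *Ube2v1* ran from -0.0473 to 0.0475, *Usp14* from -0.000751 to 0.0687, *Usp22* from -0.0301 to 0.0532 and *Usp54* from -0.0176 to 0.0974. The ratios, chosen after seeing the data, ran from -0.0387 to 0.0154 for *Usp25* to *Usp28*, from -0.0138 to 0.0284 for *Usp47* to *Usp7* and from -0.0283 to 0.0125 for *Ube2j2* to *Ube2j1*, which was 0.00132 with span offsets. Causes were not tested. Members with few reads, such as *Usp12*, *Usp18*, *Usp50* and *Ube2u*, are limited by depth.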
